A study of Mus musculus with 3 samples.

Results

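The strongest ERα binding regions of the mouse mammary gland were examined, defined as intervals covered by a peak in both ERα ChIP-seq replicates with a peak score of at least 700 in each. The members were therefore chosen on measured scores. They numbered 610 of the 6243 intervals shared by the replicates on chromosomes 1 to 19 and X (9.77%), and the remaining 5633 shared regions served for comparison. A score is the negative log10 of the peak caller's p-value against input DNA, multiplied by 10, so that 700 corresponds to a negative log10 p of 70. It rises with sequencing depth as well as with enrichment. The lists held 9607 peaks in replicate 1 and 6819 in replicate 2, and they give no reads, so the depth behind each peak is unknown here.

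In ChIP-seq, an antibody, here against ERα, pulls down crosslinked chromatin, and sequencing shows where the recovered fragments came from. Both replicates came from mammary glands of WT BALB/c female mice (BALB/cJ in the study's methods) ovariectomized when 6 weeks old. After 10 days of rest the mice received 100 ng of 17β-estradiol, and the glands were taken 2 h later. Each replicate was a pool of glands from several mice, and the 1 input library came from estradiol-treated WT glands as well. No vehicle-treated ChIP library was analysed here, so the regions describe occupancy after estradiol and not its change. The glands are whole tissue, in which ERα-positive luminal epithelial cells lie among other epithelial and stromal cells, and the lists do not say in which cells a region was bound.

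ERα, encoded by Esr1, is a nuclear receptor that binds DNA as a dimer once estradiol occupies it. Its preferred site, the estrogen response element (ERE), is a pair of GGTCA arms in inverted orientation around a spacer, and in mammary and breast cells most bound sites lie in distal enhancers rather than promoters. ERα can also be held on DNA by partners such as AP1 (Fos and Jun proteins), which recognise their own sequences.

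An ERE was scored here as GGTCANNNTGACC, a 13-base palindrome in which 10 bases were compared and at most 1 mismatch was allowed, in the 400 bp window centred on each region. Of the 8 members tied at the highest shared score of 3100 in both replicates, 3 are shown with their EREs because they carry a mismatch in either arm or none at all. Capitals mark the 13 bases of the ERE, with 8 bases of the mm9 reference plus strand on each side:
Rybp, chr6:100010055-100010067: cctggtcaGGTCAACCTGACCccagaggc
Ssr3, chr3:65185579-65185591: tcagtccaGGTTACCATGACCtctgacag
Aff3, chr1:38298779-38298791: gtgagaaaGGTCAGGCTGTCCcagccatc
With positions counted from 1 at the left end of the element, Ssr3 carried C4T and Aff3 carried A11T, and Rybp matched at all compared bases. The mice were BALB/cJ, so an individual base may differ from this reference sequence.

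The Rybp region (chr6:100009440-100010591), named for the nearest protein-coding gene, lay 227420 bp downstream of the transcription start site (TSS) of Rybp, a Polycomb-associated protein, outside any protein-coding gene. The Ssr3 region (chr3:65184893-65185955) lay in an exon of Ssr3, a subunit of the translocon-associated complex of the endoplasmic reticulum, 1879 bp downstream of a TSS. The Aff3 region (chr1:38298003-38299308) lay in an intron of Aff3, a nuclear protein of the AF4/FMR2 family, and 44367 bp upstream of the nearest TSS of that gene. Distances were signed along the gene and taken from the midpoint of the region to the nearest TSS of any transcript of a protein-coding gene. Scores of 3100 are ties and do not rank these regions.

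Not all of the regions with the highest scores held an ERE in the 400 bp window. Here and below, a region without an ERE is one with none in its window, unless the whole interval is named. In 27 members the only ERE lay outside the window. The Gas6 region (chr8:13506362-13507994), 12643 bp upstream of the gene for a secreted ligand of TAM receptor kinases, and 1 of the pair of Tprg regions (chr16:25158084-25159312) had at least 3 mismatches to the ERE in every position of the window. Each held an AP1 site, TGACTCA or TGAGTCA, and these are shown as examples of a tied score without an ERE, with the AP1 match in capitals:
Gas6, chr8:13507071-13507077: cgtgctatccTGACTCAgcaaggctgg
Tprg, chr16:25158527-25158533: ggctagtggtTGAGTCAccctttgaaa
The AP1 match lay 104 bp from the midpoint in the Gas6 region and 168 bp from it in the Tprg region. A match is a description of the letters in the window and does not say that a protein was bound there. The second Tprg region (chr16:25220372-25221370), 66032 bp upstream, had the same score of 3100 and an ERE without mismatch, shown for contrast with its neighbour:
Tprg, chr16:25220832-25220844: aagttctgGGTCATGGTGACCtcgagatg

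The member with most EREs was at chr8:124675417-124676528, in an intron of Gm20388 and nearest to Gm22. It scored 3100 in replicate 1 and 2413.8 in replicate 2, and its window held 4 EREs, each with 1 mismatch, in a row. They are shown because repeated elements of this kind were otherwise rare:
Gm22 a, chr8:124676102-124676114: gtcctgagGGTCACATTGCCCcagtgggt
Gm22 b, chr8:124676120-124676132: ccccagtgGGTCATACTGTCCtgagaagg
Gm22 c, chr8:124676139-124676151: cctgagaaGGTCACACTGACAtgagaagg
Gm22 d, chr8:124676158-124676170: catgagaaGGTCACACTGACAtgagaagg
The substitutions were A11C, A11T, C13A and C13A in this order, all in the right arm. Among the members, 342 held 1 ERE, 18 held 2, and this region was the only 1 with 3 or more. The Ptpn5 region (chr7:54363884-54364793), in an intron of a tyrosine phosphatase gene, was among those with 2, and its elements differed from the consensus at the same position, as A5T and A5C:
Ptpn5 left, chr7:54364376-54364388: atctaagaGGTCTATATGACCtgcctcat
Ptpn5 right, chr7:54364406-54364418: ccggctcaGGTCCGGGTGACCgaggctct

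Below the ties, the members with the next highest lower scores were nearest to Med13l, a Mediator kinase-module gene (3100 in replicate 1 and 3078.48 in replicate 2), and Cradd, a death-domain adaptor gene (3100 and 2956.35). After Ptpn5 (3100 and 2778.79) came Col6a3, a collagen VI chain gene (2991.27 and 2696.79), Zcchc10 (2802.47 and 2689.35) and Gm12824 (3100 and 2666.44). All of these held an ERE, and their elements are shown to give the range of forms at the top of the list, which runs from no mismatch at Med13l to T3C, C13A, A11C and T3G at the others in this order:
Med13l, chr5:119263020-119263032: tgttcgtgGGTCATTCTGACCtcccccac
Cradd, chr10:94602497-94602509: cggggttaGGCCACCCTGACCtccatctg
Col6a3, chr1:92635085-92635097: ctagaagaGGTCACCCTGACAtgcctgac
Zcchc10, chr11:53128375-53128387: catgattaGGTCAGCCTGCCCtggcactc
Gm12824, chr4:114145055-114145067: ttctcctgGGGCATGCTGACCctgagaac
The Med13l region (chr5:119262348-119263709) lay 252300 bp downstream of a TSS and the Cradd region (chr10:94602063-94603193) 183693 bp downstream, so both were far from the gene that names them. Their EREs stood 2 bp and 125 bp from the midpoint. The Zcchc10 region (chr11:53127981-53128797) was 9792 bp upstream of its gene.

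Scores, by which the members were chosen, ranged from 712.63 to 3180.61 in replicate 1, with a median of 1321, and from 701.25 to 3100 in replicate 2, with a median of 1019. The lower of the scores of a member had a median of 999.6, was at least 1000 in 305 members and at least 2000 in 49. The replicate 1 score was the higher in 544 members (89.2%) and equal in 8, and the ratio of replicate 1 to replicate 2 had a median of 1.25, with quartiles of 1.12 and 1.42. The scores were not scaled between replicates, so this ratio does not compare binding. All 8 equal pairs were ties at 3100, an exact value that recurs in both lists. Ratios that include 3100 depend on this repeated value, and why it recurs was not tested. The extremes of the ratio were 2.32 in an intron of Pkd1l2 (chr8:119559922-119560573, 1786.48 against 769.47) and 0.282 in an intron of Col24a1 (chr3:145185231-145185986, 725.23 against 2571.25). The next were 2.14 near Gm9869 (2476.5 against 1158.08) and 0.481 at AI118078 (1275.92 against 2650.08).

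**Figure D1:**
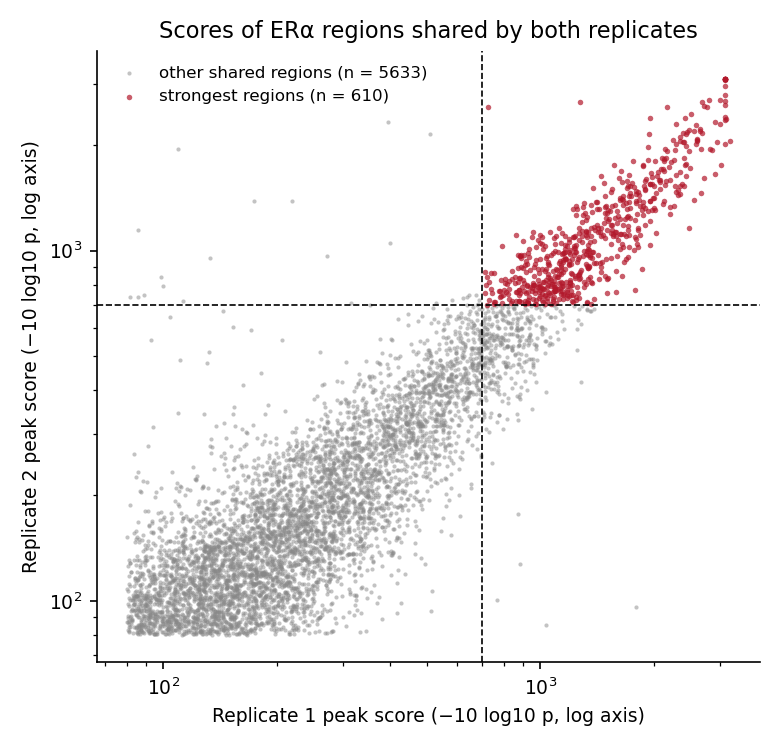
Peak scores in replicate 1 (x axis) and replicate 2 (y axis) of all 6243 shared regions, both on log axes in units of 10 times the negative log10 p. The 610 strongest regions lie above and to the right of the dashed lines at 700 that selected them, and they reach 3180.61 in replicate 1 and 3100 in replicate 2.

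The rule left out 336 of the 946 replicate 1 peaks that scored at least 700, of which 335 lay in a shared region whose replicate 2 peak scored less and 1 had no partner. Of the 616 such peaks in replicate 2, 8 were left out, all in another shared region. The threshold cut through a continuous range. Just inside it were regions near Prlr (971.58 in replicate 1 and 702.13 in replicate 2), Auts2 (752.85 and 701.87) and Txnl1 (721.89 and 701.25). Just outside were regions near Kif16b (782.88 and 699.75), Osbpl3 (1089.01 and 698.76) and Odz4 (1080.79 and 698.17). The members came from 610 peaks of replicate 1 and 608 of replicate 2, since a single replicate 2 peak lay behind both members at Col24a1 and another behind both at AI118078. Both members of such a pair carry the score of the whole replicate 2 peak. The ratios of 0.282 at Col24a1 and 0.481 at AI118078 thus set that whole peak against 1 of the replicate 1 peaks under it.

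Width comes from the same peak call as the score and is given as a description. The members were 461 to 2779 bp wide, with a median of 785 and quartiles of 673 and 939, and the other shared regions had a median of 545. Together the members covered 511.585 kb. The narrowest was 8339 bp upstream of Btbd3, a BTB-domain protein gene, at chr2:138073732-138074192, with scores of 1088.65 and 738.45 and an ERE without mismatch. The widest was 2779 bp at Synpo, the gene of an actin-associated protein, with 3100 in both replicates and an ERE carrying T3C. Next in width was a region of 1888 bp near C1qtnf1, with 1770.28 and 1523.79 and no ERE in its 400 bp window. None was narrower than the 400 bp window.

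The ERE set the strongest regions apart from the other shared regions. It was found in 361 of the 610 (59.2%, 95% exact Clopper-Pearson interval 55.2 to 63.1) against 28.1% (26.9 to 29.3) of the others, and in 31.1% of all shared regions. The odds ratio was 3.72, with an adjusted p = 1.35e-50 by two-sided Fisher's exact test, Benjamini-Hochberg over the 10 tests reported here. Windows 5 kb to each side of the members, free of peaks, held an ERE in 1.20% of 1164. Neighbouring regions share sequence features and are not independent, and the interval covers counting error only.

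The quality of the element differed as well as its presence. An ERE without mismatch was present in 110 members (18.0%, 15.1 to 21.3) and in 5.36% (4.79 to 5.98) of the others. A best match with 1 mismatch was found in 251 members (41.1%) against 22.7%, and 2 mismatches in 166 (27.2%) against 37.2%. The remaining 83 members (13.6%) had no match better than 3 mismatches, against 34.7% of the others. No ERE without mismatch occurred in the 1164 flanking windows of the members, which allows a share of up to 0.316% (upper end of the exact interval). Members of these 4 classes had similar scores, with medians of the lower score of 1014, 1030, 988 and 936 from no mismatch to 3 or more. Those with 3 or more mismatches were wider, with a median of 1029 bp against 746.5 bp for those without mismatch.

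None of the other 4 motifs passed the test. AP1 sites were found in 14.9% of members and 16.9% of the others (adjusted p = 0.329, Fisher's exact test, 16.7% of all shared regions). For SF1, CAAGGTCA, an extended receptor monomer site that contains an ERE arm, the shares were 8.85% and 9.41% (adjusted p = 0.794, exact test, 9.35% of all). For FOXA1, a forkhead pioneer factor, searched as TATTTAC or TGTTTAC, they were 13.6% and 14.1% (adjusted p = 0.806, exact test, 14% of all). PAX2, searched as GTCACG, was found in 11.8% and 8.88% (unadjusted p = 0.0217, adjusted p = 0.0724, exact test, 9.16% of all). PAX2 passed with a score minimum of 500 or of 1000 (adjusted p = 0.000833 and 0.0358, Fisher's exact test) and in the replicate 1 list alone (adjusted p = 0.00165). It did not pass with 50% reciprocal overlap (adjusted p = 0.135) or in the replicate 2 list alone (adjusted p = 0.119, Fisher's exact test), and in a 200 bp window the shares were 6.72% and 6.14% (adjusted p = 0.595). All motifs were searched on both strands. Matches of these motifs in the members' flanks reached 6.44% for AP1, 1.89% for SF1, 3.09% for PAX2 and 11.7% for FOXA1.

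**Figure D2:**
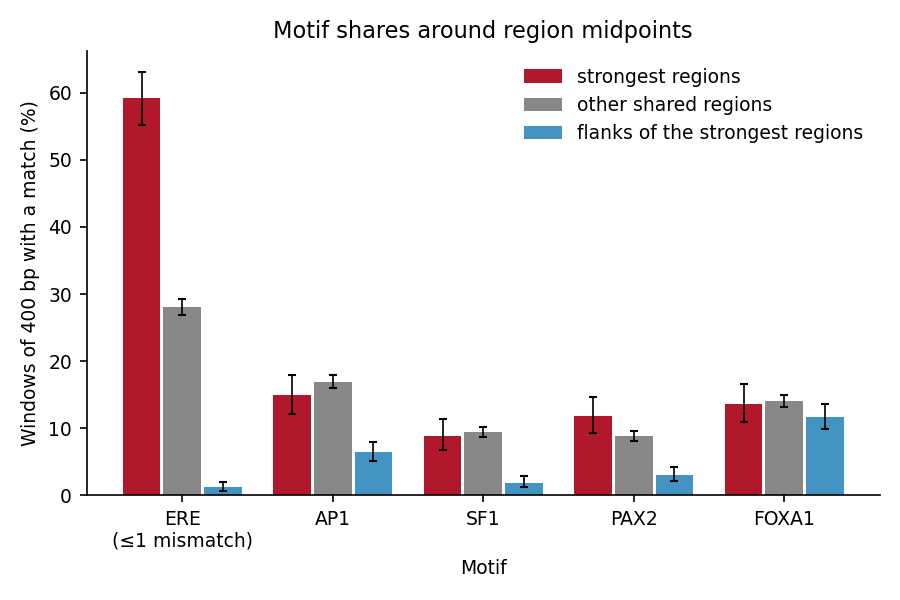
Share of 400 bp windows with a match (y axis, %) for each motif (x axis) in the strongest regions, the other shared regions and the flanks of the strongest regions 5 kb away; bars start at 0 and error bars are exact 95% intervals, which cover counting error only. The ERE stood at 59.2%, 28.1% and 1.20%, and the other 4 motifs lay close together in both sets of regions.

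The motif results for AP1, FOXA1 and PAX2 changed with the length searched. When the whole interval was searched rather than a fixed window, AP1 was found in 25.6% of members against 20.2% of the others and FOXA1 in 23.4% against 18.6%, both above the others (adjusted p = 0.00562 and 0.0094, Fisher's exact test), and PAX2 in 16.7% against 10.6% (adjusted p = 4.56e-05). Longer sequence holds more matches of any short motif, and the members were longer than the others, so the fixed window is the basis here.

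Among the 361 members with an ERE, 214 held none of the other 4 motifs. Of the 249 without an ERE, 103 held another motif, AP1 in 42 (16.9%), PAX2 in 31 (12.4%), FOXA1 in 28 (11.2%) and SF1 in 17 (6.83%). In the 4052 other shared regions without an ERE the shares were 17.3% for AP1, 8.39% for PAX2, 14.8% for FOXA1 and 8.22% for SF1. No motif of the 5 was found in 146 members (23.9%), against 42.9% of the other shared regions. The 5 include the ERE, so this contrast contains the ERE difference and is no separate result on the other 4 motifs. The AP1 share was 13.6% (10.2 to 17.5) in members with an ERE and 16.9% (12.4 to 22.1) in those without, intervals that overlap. Of the 54 members with an SF1 match, 37 also held an ERE. In 21 members the SF1 match overlapped or touched an ERE, so the same bases can count for both motifs. PAX2 matches can also share bases with an ERE, and this overlap was not counted. Searching the whole interval added an ERE to 27 members.

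The share with an ERE increased with the lower of the scores and then levelled off within the members. It was 19.8% (17.5 to 22.3) for scores of 80 to 100, 32.9% for 200 to 300 and 47.7% (42.3 to 53.1) for 500 to 700, just below the rule. Within the members it was 56.4% (50.6 to 62.0) from 700 to 1000, 62.6% (55.2 to 69.5) from 1000 to 1500, 62.3% (49.8 to 73.7) from 1500 to 2000 and 59.2% (44.2 to 73.0) from 2000 upward. The intervals of the member classes overlap, so no difference between them was resolved. AP1 stayed between 13.0% and 18.2% over all score classes.

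**Figure D3:**
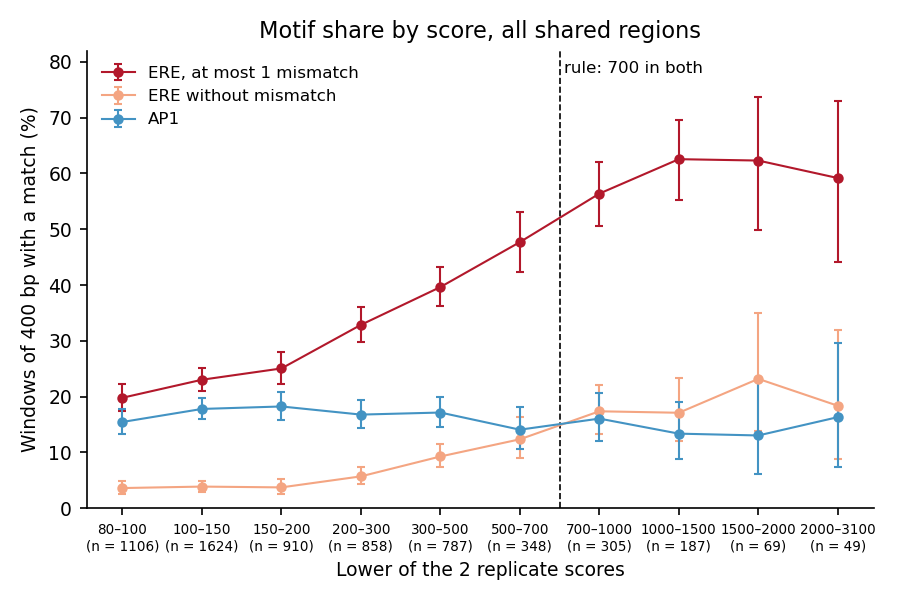
Share of 400 bp windows with a motif (y axis, %) by the lower of the replicate scores (x axis, classes with their number of regions), with exact 95% intervals for counting error. The ERE share rose from 19.8% in the lowest class to 47.7% just below the dashed line of the rule and lay between 56.4% and 62.6% beyond it, the ERE without mismatch rose from 3.62% to between 17.1% and 23.2%, and AP1 lay between 13.0% and 18.2%.

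In position, the EREs clustered at the centre of the regions. The best ERE lay a median of 39 bp from the midpoint in the members and 29 bp in the other shared regions, and 61.5% and 73.2% lay within 50 bp. The members were also wider, as given above, and the part of width in this difference was not tested. AP1 matches lay farther from the midpoint than EREs, with a median of 92 bp in members and 72.5 bp in the other shared regions. For FOXA1 the medians were 103 bp and 84 bp. Whether these distances differ from an even spread over the window was not tested.

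**Figure D4:**
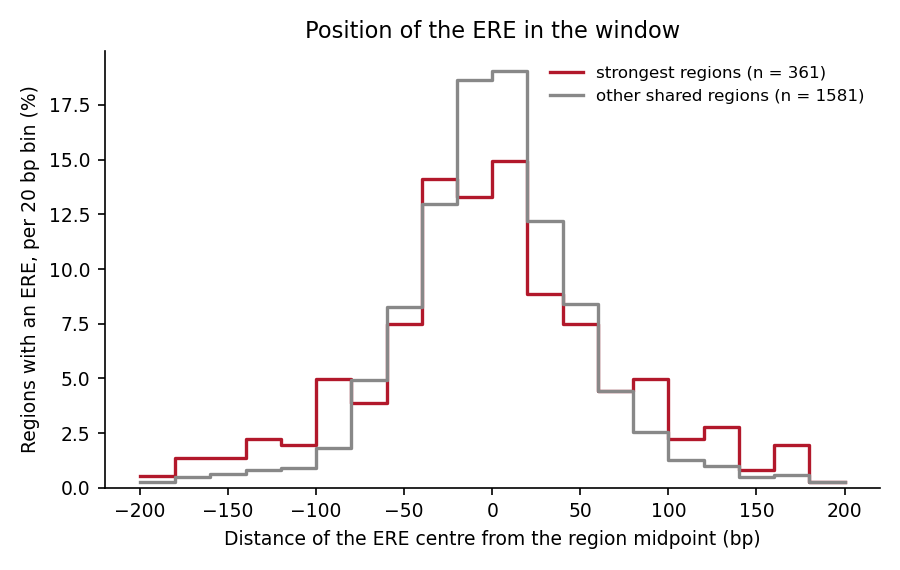
Distance of the ERE centre from the region midpoint (x axis, bp) as the share of regions with an ERE per 20 bp bin (y axis, %), for the 361 strongest and 1581 other regions with an ERE. Both sets peak at the centre, and 61.5% of the strongest and 73.2% of the other regions had their ERE within 50 bp of it.

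The mismatches of the 251 members with an ERE of 1 mismatch were not spread evenly over the arm. Read outside to inside as GGTCA, base 1 was changed in 34.7%, mostly to T, base 3 in 35.9%, mostly to G, base 5 in 15.9% and base 4 in 10.4%. The 1279 such elements of the other shared regions were similarly uneven, with 33.1%, 34.1%, 11.7% and 10.4% at bases 1, 3, 5 and 4. Base 2 was changed in 8 elements (3.19%), against 10.7% in the other shared regions. The base before the arm, which was not part of the search, was A in 50.5% and G in 36.8% of the 220 arms of the 110 EREs without mismatch. An A stood before at least 1 arm in 80 of these 110 (72.7%) and in 75.2% of the 302 elements without mismatch of the other regions.

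None of the 4 classes of position passed the test against the other shared regions. Midpoints outside protein-coding genes made up 345 of 610 (56.6%) against 53.0% of the others (adjusted p = 0.191, Fisher's exact test, 53.3% of all shared regions), and introns held 250 (41.0%) against 43.0% (adjusted p = 0.457, 42.8% of all). Exons held 15. Proximal regions, from 1 kb upstream to 400 bp downstream of a coding TSS, were 23 (3.77%, 2.40 to 5.60) against 5.77% (5.17 to 6.41), a difference that did not pass the adjustment (p = 0.0407, adjusted p = 0.102, exact test, 5.57% of all). In the replicate 1 list alone, proximal peaks were 4.65% of the 946 with a score of at least 700 and 7.54% of the rest (adjusted p = 0.00185, Fisher's exact test). Beyond 100 kb from any coding TSS lay 130 (21.3%) against 18.7% (adjusted p = 0.213, exact test, 19% of all), and with the TSS of any annotated gene, coding or not, 11.8% against 11.1% (adjusted p = 0.736, exact test). The median distance from a coding TSS was 28300.5 bp in the members and 24831 bp in the others.

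**Figure D5:**
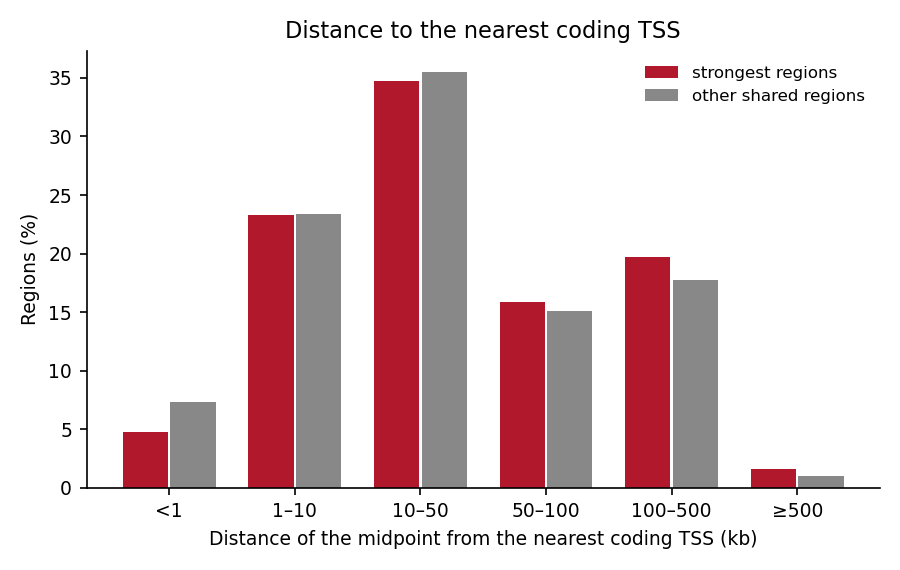
Distance of the region midpoint from the nearest coding TSS (x axis, kb) as a share of regions (y axis, %), for the 610 strongest and 5633 other shared regions. In the class under 1 kb stood 4.75% of the strongest and 7.30% of the other regions, and in the class of 10 to 50 kb 34.8% and 35.5%.

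An ERE was found in 15 of the 23 proximal members (65.2%, 42.7 to 83.6), without mismatch in 5, at 1110054O05Rik, Lrrc41, Map2k7, Map2k1 and Nrip1. Lrrc41 encodes a leucine-rich repeat protein, Map2k7 and Map2k1 the kinases that activate JNK and ERK, and Nrip1 the nuclear receptor corepressor RIP140. These genes were picked after the values were seen, for their ERE without mismatch:
Nrip1, chr16:76373931-76373943: taactctaGGTCATTTTGACCccatgctc
Map2k1, chr9:64101736-64101748: ttgggctgGGTCATTTTGACCcagacaaa
Map2k7, chr8:4239176-4239188: agggagagGGTCACGGTGACCtggaagtc
Lrrc41, chr4:115749813-115749825: cagaaaaaGGTCAGGCTGACCctatggtg
1110054O05Rik, chr4:59796445-59796457: tgagaaagGGTCAGGGTGACCcaggagtc
The Nrip1 and Map2k1 elements shared the same 13 bases. The Nrip1 region scored 881.94 and 756.61 with its midpoint 245 bp downstream of a TSS, and Map2k1 scored 1047.85 and 854.71 at 336 bp upstream. The Map2k7 region scored 1792.7 and 1382.01 at 368 bp downstream, and Lrrc41 1050.97 and 918.32 at 244 bp downstream. The highest proximal scores were at Triobp, an actin-binding protein gene, with 2860.04 and 1938.7 at 37 bp upstream of a TSS.

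Gene lists are described by counts, without a test. Over all 22350 protein-coding genes of these chromosomes, 2.35% were the nearest gene of a member, 6.08% had a member within 100 kb of a TSS and 38.1% any shared region within 100 kb. Of 18 receptor and coregulator genes listed, 5 were nearest to a member (among them Pgr, Prlr, Nrip1 and Greb1), 5 had a member within 100 kb and 14 any shared region within 100 kb. The lists were chosen with earlier results of these data known, so the counts are not independent evidence. Pgr, the progesterone receptor and a classical estrogen target, was nearest to 3 members, 142856 to 167171 bp upstream. Its strongest (chr9:8732580-8733916) scored 2599.8 and 2085.24 with no ERE of fewer than 3 mismatches, and the next (chr9:8752035-8752860) scored 1945.98 and 2148.38 with an ERE carrying C4T. A further member lay 69102 bp downstream of a Pgr TSS (chr9:8970137-8970966), with 2349.7 and 2059.11, nearest to Gm16485. Greb1, an ERα coactivator gene, had a member in an intron 10112 bp downstream (chr12:16797037-16797719, scores 1842.25 and 1106.15). Its ERE, with A11C, is shown beside those of Nrip1, with C4T, and the second Pgr region:
Greb1, chr12:16797416-16797428: accctacaGGTCAGGGTGCCCcagatcag
Nrip1 intron, chr16:76322006-76322018: acagggcgGGTTAGAGTGACCttgagctg
Pgr, chr9:8752335-8752347: tttccaagGGTTAATGTGACCctcctctt
Nrip1 had 3 members. Esr1 itself was nearest to none, but 1 member (chr10:5786868-5787586, scores 1629.62 and 1230.21) lay 52279 bp upstream of an Esr1 TSS in an intron of Gm221. Prlr, the prolactin receptor, had the member just inside the threshold, 194955 bp upstream.

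Of 19 luminal and mammary transcription factor genes, 5 were nearest to a member (Gata3, Tbx3, Trps1, Stat5a and Stat5b), 6 had a member within 100 kb and 16 any shared region within 100 kb. Gata3, the luminal lineage factor, had a member 67906 bp downstream (chr2:9726845-9727941, scores 1416.28 and 1311.32), with the ERE change T3A, and another 1106703 bp downstream. With only the most 5′ TSS of each coding gene, the first of these lay instead 75486 bp upstream of the nearest start. That start belongs to another gene, since a more 5′ Gata3 start would leave the region downstream. Stat5a and Stat5b, transducers of prolactin signalling that lie side by side, had 3 members between them. The intronic Stat5a member (chr11:100731484-100732491) scored 2296.56 and 2292.32 with an ERE without mismatch. The Stat5b members scored 1613.4 and 1614.57 (chr11:100660515-100661228, G1T) and 1559.09 and 1115.93 (chr11:100715428-100715990). Trps1, a GATA-type repressor, had an ERE without mismatch 181514 bp upstream (scores 1258.46 and 755.76). The Tbx3 member (chr5:120088244-120089017, scores 1120.88 and 726.28), 32048 bp upstream of this T-box gene, had a best match with 2 mismatches, G2C and C4T, and so counts as without an ERE. The 5 best matches are set side by side:
Stat5a, chr11:100732113-100732125: aaggaccaGGTCAGTGTGACCtggttctt
Trps1, chr15:50903173-50903185: acacttgaGGTCACAGTGACCtattctgt
Stat5b, chr11:100660850-100660862: gaaaaccaTGTCACAATGACCttgtcctt
Gata3, chr2:9727408-9727420: tggtggcaGGACAGCCTGACCtaattctc
Tbx3, chr5:120088525-120088537: gggtacttGCTTAAACTGACCtctggatt
In the Stat5a and Trps1 elements an A stands before the left arm and, read on the other strand, before the right arm as well. Nearest position does not establish which gene a region acts on.

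Among 18 growth factor and feedback genes, 5 were nearest to a member (Errfi1, Igf1, Csf1, Vegfa and Socs3), 6 had a member within 100 kb and 13 any shared region within 100 kb. Csf1, the macrophage growth factor, had a member 18037 bp downstream with scores of 1113.58 and 991.96 and an ERE without mismatch. Vegfa, the endothelial growth factor, had a member 1624 bp upstream of a TSS, in an intron, with 1721.67 and 1375.75 and the change C4T. The Socs3 member (chr11:117812448-117813987), near the gene for a feedback inhibitor of STAT signalling, scored 2901.55 and 1655.69 and had no ERE in its window. Errfi1, an inhibitor of the EGF receptor, had 3 members within 100 kb, none with an ERE in its window. The highest of them by the lower score, nearest to Park7, gave 1050.65 and 928.74. Igf1 had a member 45849 bp upstream with 2203.08 and 1269.29 and a best match of 2 mismatches. The Csf1 and Vegfa elements are shown as the pair with an ERE:
Csf1, chr3:107535602-107535614: ttctgctaGGTCATTGTGACCagcacttt
Vegfa, chr17:46163461-46163473: tagaagcaGGTTAGCCTGACCtctaaaga

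Of 16 AP1 and immediate early genes, Jdp2, Atf3 and Myc were nearest to a member, 5 genes had a member within 100 kb and 12 any shared region within 100 kb. Jdp2, an AP1 repressor, had members of 2207.34 and 1333.92 at 29231 bp upstream and of 2286.3 and 1470.22 at 29880 bp downstream, the former also 95274 bp downstream of a Fos TSS. The Myc member (chr15:62126539-62127421, scores 2395.62 and 2037.4) lay 308003 bp downstream. Atf3, a stress-induced factor of the ATF family, had 1550.96 and 1495.23 at 42158 bp upstream, with an ERE carrying G1T. Of 12 keratin and adhesion genes, Krt4 and Trp63 were nearest to a member, 5 genes had a member within 100 kb and 9 any shared region within 100 kb. Krt4 had 2690.25 and 2163.99 at 2741 bp upstream, without an ERE in its window. Trp63, the basal epithelial factor p63, had 741.78 and 865.6 at 151876 bp upstream, with A5T. The tied region nearest to 5430421N21Rik, with 3100 in both replicates, lay 94757 bp downstream of a Krt7 TSS. It held a pair of EREs 8 bases apart that both differed at base 5, by A5C and A5G:
5430421N21Rik left, chr15:101337719-101337731: agagataaGGTCCCAGTGACCcagggaag
5430421N21Rik right, chr15:101337740-101337752: cagggaagGGTCGCTGTGACCcagcaagg

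The 610 members had 525 different nearest coding genes, 439 of them within 100 kb. A single member was nearest to 458 genes, while 54 had 2, 11 had 3, Gadd45g had 5 and Zmiz1 had 6. Of the members, 265 lay inside 243 protein-coding genes, and in 227 the host was also the nearest gene. Zmiz1 encodes a coactivator of nuclear receptors and Smad proteins, and its members ran from 273398 bp upstream to 50169 bp downstream. The intronic member at chr14:26292001-26293209 scored 2991.46 and 2302.74, and that at chr14:26328468-26329953 scored 2052.39 and 1678.77 with an ERE without mismatch. The lowest of the 6 scored 1014.51 and 776.85. An ERE was present in 3 of the 6, shown with the changes T3G in the most distal region and A11G in the strongest:
Zmiz1 most distal, chr14:26005216-26005228: cacgcacaGGGCACAGTGACCtcacacaa
Zmiz1 strongest, chr14:26292724-26292736: ccagtatgGGTCAGGGTGGCCcttaactt
Zmiz1 without mismatch, chr14:26329114-26329126: gtgtcctgGGTCAGCATGACCagaagtgt

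The study also measured mRNA in glands of the same design, and its list of genes induced or repressed by estradiol was used here only for membership, by Ensembl identifier, without a test. The nearest gene was an induced one for 74 members (12.1%, 9.65 to 14.99), at 56 genes, against 6.20% (5.58 to 6.86) of the other shared regions and 6.78% of all. It was a repressed one for 8 members (1.31%), at 7 genes, against 1.33% of the others and 1.33% of all. Induced genes with the highest member scores were Rybp and Synpo at 3100 in both replicates, and Ptpn5 at 3100 and 2778.79. The repressed genes were Gata3, Cmya5, Gipc2, Mboat1, Kcnk5, Mlph and Prlr. These counts follow nearest position alone, and genes with several members, such as Zmiz1, are counted with each.

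The strongest regions lay closer to other shared regions than the rest did. Another shared region was found within 10 kb of 262 members (43.0%, 39.0 to 47.0) against 29.5% (28.3 to 30.7) of the others and 30.8% of all, with an odds ratio of 1.80 and adjusted p = 1.58e-10 by two-sided Fisher's exact test. The median gap to the next shared region was 14978 bp in members and 33891 bp in the others, and 120 members (19.7%) had none within 100 kb against 29.7%. In 18 members a peak was shared with another shared region, and these are counted among the neighbours. When only neighbours at 1 to 10 kb were counted, an alternative chosen after seeing the data, the shares were 37.5% and 25.5% (adjusted p = 3.87e-09, Fisher's exact test). The ERE share was 58.4% (52.2 to 64.4) in members with a neighbour within 10 kb and 59.8% (54.4 to 65.0) in those without, intervals that overlap.

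Linked by gaps of at most 50 kb, 120 members (19.7%) formed 57 runs, of which 53 were pairs. The runs with most members had 4 each, and a run of 3 near Cryaa (chr17:31820725-31827321) was the most compact of those with at least 3, within 6.597 kb. That between Trpc6 and Pgr (chr9:8693029-8757893) spanned 64.9 kb and held 11 shared regions, with member scores in replicate 1 of 985.79, 2599.8, 1945.98 and 929.3 from left to right and in replicate 2 of 1070.57, 2085.24, 2148.38 and 709.1. That downstream of Gadd45g (chr13:52071090-52153356), a stress-response gene, spanned 82.3 kb with 6 shared regions and replicate 1 scores of 2139.86, 1324.08, 1117 and 1324.76 beside 1537.01, 916.26, 778.99 and 1140.93 in replicate 2. The strongest member of each run had at least 3 mismatches to the ERE, and the others of the Gadd45g run each held an ERE, without mismatch in 2 and with C13A in the middle region:
Gadd45g first ERE, chr13:52095451-52095463: gcagggaaGGTCAATGTGACCttctaggg
Gadd45g middle ERE, chr13:52144434-52144446: gtgactgtGGTCACCATGACAtaaactgt
Gadd45g last ERE, chr13:52152992-52153004: aatccctaGGTCAGACTGACCtgtgtgca
Trpc6, chr9:8693381-8693393: gactgggaGGTCACAGTGACAcagttcag
The Trpc6 element carried C13A like the middle element at Gadd45g. At the AI118078 pair of members, 119 bp apart in an intron, an ERE without mismatch stood in the left one (chr9:55208541-55209270, 2684.13 and 2650.08), whereas the right one (chr9:55209390-55210506) scored 1275.92 in replicate 1 and held AP1 matches instead.

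Across chromosomes the members were from 3.57% of the shared regions on X (2 of 56, 0.435 to 12.3) to 13.1% on chromosome 16 (33 of 252, 9.19 to 17.9). On chromosome 11 they were 12.9% (54 of 418, 9.86 to 16.5). The intervals of X and chromosome 16 include the 9.77% of all shared regions, whereas that of chromosome 11 lies just above it. Differences between chromosomes were not tested. A few members held sequence repeated within the interval itself, and repeats shared with other parts of the genome were not searched for. In 6 members (0.984%) and 0.994% of the others, over 10% of the 20-base words of the interval repeated a word already in it. The most repetitive was in an exon of the gene model Gm10800 (chr2:98506335-98507550, 34.1% of words, scores 1242.12 and 1340.11), next to a member at Gm10801 with 11.5% of words. Neither had an ERE in its window. How reads were assigned to repeated sequence was not tested.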

How the data were processed

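ERα ChIP-seq peak lists of 2 replicates were analysed; the input entered through the authors' peak calling only. The authors used BWA to align to mm9, and MACS to call the peaks of each replicate over input, requiring a p-value of 1e-08 or less. The MACS version is not given in the sources used here. The deposited score is the negative log10 p multiplied by 10, and it is not scaled between replicates. Peaks overlapping by at least 1 bp were intersected, and members had a score of at least 700 in both. Coordinates are 1-based on mm9, whose sequence (NCBIM37) and GENCODE version 1 (Ensembl 65) genes were used. All peaks on the chromosomes used ended within the lengths of that reference. Motifs were searched in 400 bp windows on both strands.

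Motif, location and neighbour shares were compared with the other shared regions by two-sided Fisher's exact test, Benjamini-Hochberg over 10 tests, with a threshold of 0.05. Scores were not tested, since they chose the members, nor were widths, which come from the same peak calls. Shares carry 95% intervals (exact Clopper-Pearson, for counting error alone), and 2 pooled replicates give no estimate of the variation among animals. Induced and repressed genes were taken from the study's supplementary list by Ensembl identifier, 218 of 220 and 272 of 273 being in the annotation; its values were not used.

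Regions named are the 15 with the highest lower score, the top member of each listed gene, 3 on each side of the threshold, those with most EREs, the extremes of width and score ratio, the genes with most members and the 2 runs with most members; some others were named after their values were seen. The region of 1 listed gene is not reported here. The members and lists were chosen with earlier results of these data known. Alternatives were score minimums of 500 and 1000, 50% reciprocal overlap, each replicate alone, other windows, ERE mismatches, TSS sets and neighbour distances. The overlap, motif and TSS steps were tested on simulated data. Tools were samtools 1.23.1, pysam 0.24.0, scipy 1.17.1, matplotlib 3.10.9, pandas 2.3.3 and numpy 2.4.6 under Python 3.11.15.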

Additional observations from a re-analysis of the deposited data

How the results depend on the processing

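The ERE share of the strongest regions ranged from 18.0% to 86.4% over 9 alternatives and the share with a neighbour from 37.5% to 80.3% over 8, and both stayed above the other shared regions and past the threshold in each. A score minimum of 500 gave 958 regions and one of 1000 gave 305 regions nearest to 272 genes. At 500 the SF1 share was 9.81%, FOXA1 14.1% and introns 43.0%, all slightly above the other regions rather than below, and none passed the threshold. PAX2 was past it at 500 (12.4%), at 1000 (13.4%) and over the whole interval (16.7%), but not in a 200 bp window (6.72% against 6.14%). Over the whole interval AP1 (25.6%), SF1 (12.6%) and FOXA1 (23.4%) also turned above the others, where members are longer. With either replicate left out in turn, there were 616 to 946 regions, with median widths of 778.5 to 921.5 bp, SF1 shares of 8.28% to 9.09%, PAX2 shares of 10.9% to 12.2% and proximal shares of 3.90% to 4.65%; without replicate 2 SF1 was above the other peaks, and PAX2 (adjusted p = 0.00165) and proximal position (adjusted p = 0.00185, both Fisher's exact test) were past the threshold. The cause of these changes was not tested. With the most 5′ coding TSS, 6 of 59 distances of named regions changed sign and 10 moved over 1.5 times. Among them were the regions at Vegfa (1624 bp upstream to 5872 bp downstream), Stat5a (8346 bp upstream to 11322 bp downstream) and Nrip1 (1853 to 52022 bp). Each new distance runs to the nearest such start, which may belong to another gene. The Stat5b region went from 22971 bp downstream to 28600 bp upstream. That start belongs to another gene, since a more 5′ Stat5b start would leave the region downstream. With the TSS of any annotated gene, 14 distances changed sign and 18 moved over 1.5 times, and the share beyond 100 kb was 11.8%. No paired analysis was possible because both replicates are of the same group. Peak lists hold no reads, so the depth of a region could not be weighed.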
